A study of Mus musculus with 6 samples.

Results

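The Bcl2 family decides whether a cell keeps its mitochondria intact or dies, and 9 of its genes are described here out of the 18429 genes of the count matrix. They were chosen by name: Bcl2a1a, Bcl2a1b, Bcl2a1d, Bcl2l1 and Mcl1 encode proteins that keep cells alive, and Bcl2l11, Bax, Bak1 and Bid encode proteins that promote death. Every member held at least 200 UMIs (unique molecular identifiers, each tagging a counted transcript) over all samples, from 226 for Bak1 to 4177 for Mcl1. The counts come from MARS-seq, a plate-based single-cell RNA-seq method that tags the 3′ end of transcripts, applied to 1362 single bone marrow-derived macrophages. The 6 groups were wild-type macrophages that were untreated or had 2 h or 8 h of LPS (bacterial lipopolysaccharide from Salmonella typhosa, 10 ng/ml), and Rad21-/- macrophages under the same 3 conditions. Rad21 is a core subunit of cohesin, the ring complex that holds chromatin loops, and the study compared how macrophages with and without it switch on inflammatory genes. Both genotypes carried Rosa26 creERT2/creERT2 and were given 200 nM 4-hydroxy-tamoxifen, and the Rad21-/- cells had in addition Rad21 lox/lox. Untreated and LPS-treated cells were thus all exposed to the tamoxifen-activated recombinase, and cells were taken on day 7 of culture.

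Each group is 1 sample, so no difference below has a replicate check, and no test was run. A level is the mean over cells of a gene's UMIs scaled to 1000000 UMIs per cell (CPM), with each cell weighing the same, and its 95% interval covers counting error only. Where cells are said to be thinned, each was reduced to 3800 UMIs drawn at random and shallower cells were left out, from 21 to 47 per sample. Because reads mark the 3′ end, transcript length does not scale these counts, but genes were still compared mainly with themselves across samples. The 3 wild-type samples held 682 cells and the 3 Rad21-/- samples 680, with a median of 5577 to 7055.5 UMIs per cell. They were made in 24 library pools, and since no pool spans different time points, time and pool cannot be told apart, whereas 23 of the pools carry cells of both genotypes. Wells of over 25000 UMIs numbered 17, and they held 45.5% of the UMIs of the wild-type 2 h sample, which is why each cell was given the same weight. Rad21 UMIs were found in 25.9%, 26.9% and 18.7% of wild-type cells (untreated, 2 h, 8 h) and in 2.96%, 6.45% and 5.80% of Rad21-/- cells. All 8 macrophage markers were detected in each sample, from Mertk in 4.46% to 11.7% of cells to Lyz2 in 98.9% to 100%. Cd14 was found in 48.1% of untreated Rad21-/- and 86.2% of untreated wild-type cells, and in 87.1% to 98.9% after LPS.

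Pro-survival members such as Mcl1, Bcl-xL (the product of Bcl2l1) and A1 (the product of the Bcl2a1 genes) hold Bax and Bak1 in check at the outer membrane of mitochondria. Bim (from Bcl2l11) and Bid are sensors that bind the survival proteins or activate Bax and Bak1, which then open the membrane and release cytochrome c to start the caspases. A1 is well known as a gene that inflammatory signals through NF-κB switch on in macrophages and neutrophils, and the mouse carries it as a cluster of nearly identical copies. Mcl1 has a short-lived transcript and protein, and Bim is a known brake on the lifespan of myeloid cells.

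The 3 A1 genes lie on chromosome 9 in GRCm38, Bcl2a1d at chr9:88723288-88731850, Bcl2a1a at chr9:88956920-88962416 and Bcl2a1b at chr9:89199273-89207838, and a further copy, Bcl2a1c, lies apart at chr9:114330135-114330578. The stretch of their promoters shown next is printed because these genes moved together after LPS and share almost all of it. Each line is from RefSeq promoters on GRCm38.p6, 5′ to 3′ on the gene's strand. Capitals mark TGANTCA, a loosened form of the core that AP-1 factors recognise, with any base allowed at its centre. That base is A in each match shown. Capitals also mark GAGGAA or its reverse complement TTCCTC, a core of the kind the myeloid factor PU.1 recognises. Bcl2a1a (chr9:88956780-88956881, plus strand) and Bcl2a1b (chr9:89199089-89199190, plus strand) are identical here, Bcl2a1d (chr9:88731889-88731984, minus strand) lacks 6 bases, and Bcl2a1c (chr9:114329885-114329986, plus strand) differs at 7 positions.
Bcl2a1a: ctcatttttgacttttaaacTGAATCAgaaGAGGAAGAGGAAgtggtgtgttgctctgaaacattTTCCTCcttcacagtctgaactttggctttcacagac
Bcl2a1b: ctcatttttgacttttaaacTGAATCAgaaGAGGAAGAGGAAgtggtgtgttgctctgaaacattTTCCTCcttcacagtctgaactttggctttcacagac
Bcl2a1d: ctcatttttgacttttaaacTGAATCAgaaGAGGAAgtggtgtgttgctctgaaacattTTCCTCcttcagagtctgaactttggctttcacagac
Bcl2a1c: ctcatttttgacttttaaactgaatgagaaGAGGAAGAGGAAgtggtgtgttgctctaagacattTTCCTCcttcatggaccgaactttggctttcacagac

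Bcl2a1d thus holds 1 forward GAGGAA where Bcl2a1a and Bcl2a1b hold 2, and it differs from Bcl2a1a by the substitution C77G, counted from 1 at the 5′ end of the Bcl2a1a line. Bcl2a1c carries C26G among its changes, which falls in the TGANTCA match and removes it. Within 250 bases upstream of the annotated start, TGANTCA was present on either strand in 6.75% of 32817 mouse promoter windows, and GAGGAA in 23.3%. Among the other members these 250 bases held no TGANTCA match, GAGGAA was matched once each in Bak1 and Bid, and a ten-letter NF-κB pattern was matched in 1 of the 3 Bcl2l1 windows and in no A1 window, against 7.25% of all windows. A match is a run of letters and says nothing of binding.

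The A1 transcripts are nearly identical as well. Bcl2a1a and Bcl2a1d differed at 10 positions of their 816-base Gencode M1 transcripts (98.8% identity), Bcl2a1b and Bcl2a1d at 8 (99.0%) and Bcl2a1a and Bcl2a1b at 16 (98.04%). The authors kept only reads with an unambiguous position, so a read from a shared stretch was lost. Of the 50-base stretches in the last 400 bases, 42.7% were particular to Bcl2a1a, 41.9% to Bcl2a1b and 15.7% to Bcl2a1d, so the levels of the 3 genes are uncertain relative to each other, and each is best compared with itself across samples.

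The A1 genes showed the widest swing of all members, from near absence to nearly every cell. Bcl2a1a stood at 1.15 CPM in untreated wild-type cells, 68.7 CPM at 2 h and 223 CPM at 8 h, and at 0.896, 60.8 and 295 CPM in Rad21-/- cells. Bcl2a1b stood at 12.1, 177.1 and 470 CPM in wild-type cells, and the Rad21-/- levels were 5.53, 125 and 418 CPM. Bcl2a1d stood at 8.67, 166 and 450 CPM in wild-type cells, and the Rad21-/- levels were 3.86, 115.3 and 446 CPM. In both genotypes all 3 were lowest untreated, intermediate at 2 h and highest at 8 h, with intervals that do not overlap between the time points.

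**Figure D1:**
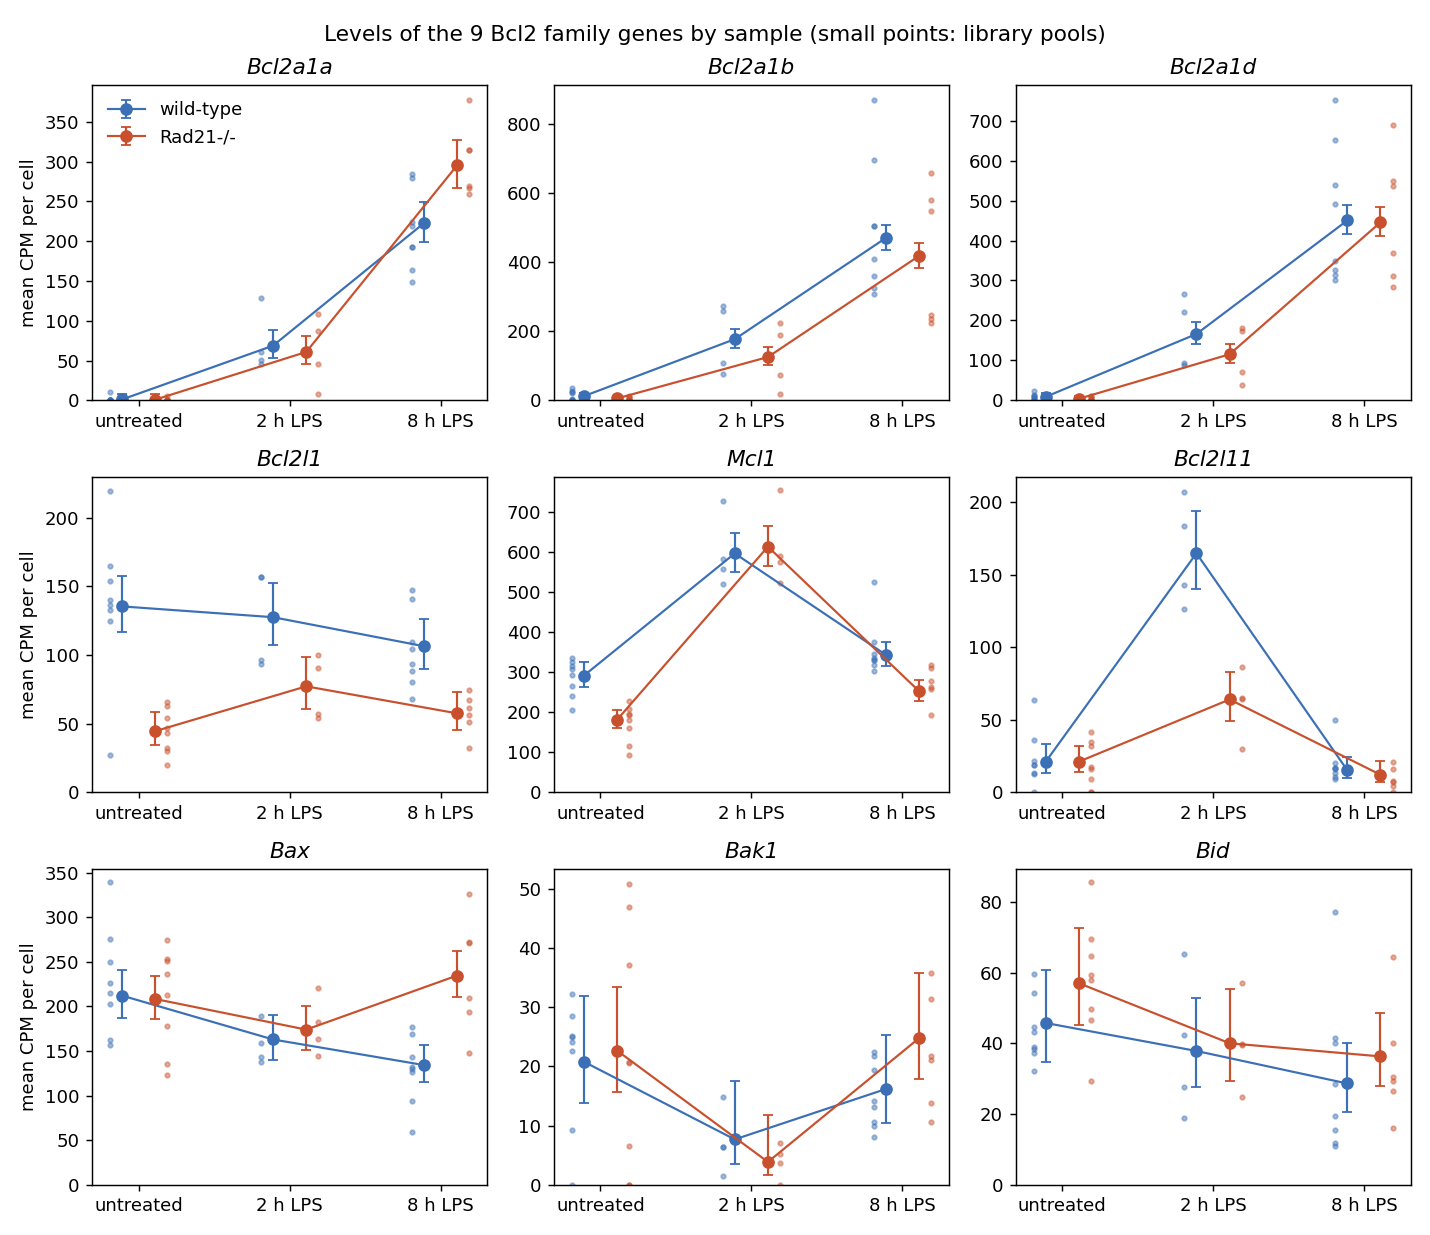
Level of each of the 9 genes (mean CPM per cell, linear axis from 0) in untreated cells and after 2 or 8 h of LPS, for wild-type (blue) and Rad21-/- (orange) cells; large points are the samples with 95% counting intervals, and small points are library pools of at least 10 cells. The Bcl2a1 genes are highest at 8 h in both genotypes, Mcl1 and Bcl2l11 at 2 h, and Bcl2l1 lies lower in Rad21-/- cells throughout.

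Summed over the 3 genes, the A1 level at 2 h was 18.8-fold that of untreated cells in wild-type (log2 4.23, 3.61 to 4.83) and 29.3-fold in Rad21-/- cells (log2 4.87, 3.96 to 5.74). At 8 h it was 52.2-fold (log2 5.71, 5.10 to 6.29) and 112.7-fold (log2 6.82, 5.92 to 7.66). The larger folds of Rad21-/- cells start from a lower base, 10.3 CPM (5.72 to 19.1) against 21.9 CPM (14.7 to 33.2) in wild-type, and rest on 19 and 36 untreated UMIs. At 8 h the sums were nearly equal, 1143 CPM in wild-type and 1159 CPM in Rad21-/- cells. Bcl2a1a alone, with 2 untreated UMIs in wild-type and 1 in Rad21-/- cells, gave log2 ratios at 8 h of 7.59 (4.80 to 10.64) and 8.37 (5.26 to 13.67).

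At 2 h the A1 genes stood lower in Rad21-/- cells. The sum was 302 CPM against 412 CPM in wild-type, a log2 ratio of -0.45 (-0.68 to -0.22). It was lower in all 4 pools with 10 or more cells per genotype, but unevenly, with pool ratios from -1.94 to -0.13. Levels of the sum in single pools ranged from 216 to 654 CPM in wild-type and from 64.4 to 506 CPM in Rad21-/- cells. Bcl2a1b and Bcl2a1d were each lower in Rad21-/- cells in 4 of 4 pools, at -0.50 (-0.86 to -0.14) and -0.53 (-0.91 to -0.15), and Bcl2a1a in 2 of 4, at -0.18 (-0.73 to 0.37). At 8 h Bcl2a1a was instead higher in Rad21-/- cells in 6 of 6 pools, at 0.41 (0.19 to 0.63), Bcl2a1b was at -0.17 (-0.33 to -0.0028) and Bcl2a1d at -0.02 (-0.18 to 0.15). The median of all 8441 genes was itself at 0.22 in this comparison, above the lower end of the Bcl2a1a interval. Bcl2a1a made up 20.0% (18.2% to 21.8%) of the A1 UMIs of wild-type cells at 8 h and 23.6% (21.8% to 25.4%) of those of Rad21-/- cells, whereas Bcl2a1d made up 39.0% and 39.4%.

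With time more cells had an A1 UMI, and those cells held more of them. Among thinned wild-type cells, the untreated sample had an A1 UMI in 6.77% (3.65% to 11.3%), the 2 h sample in 53.9% (46.0% to 61.7%) and the 8 h sample in 87.7% (82.7% to 91.7%). Among thinned Rad21-/- cells the values were 3.59% (1.56% to 6.95%), 35.7% (28.2% to 43.8%) and 90.6% (85.8% to 94.3%), so the intervals of the genotypes were apart at 2 h and overlapped at 8 h. Without thinning, 64.0% and 47.3% of cells had one at 2 h. Positive wild-type cells held on average 1.46, 2.55 and 4.90 A1 UMIs, and positive Rad21-/- cells 1.00, 2.46 and 4.85.

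Within a sample, the copies tended to be found in the same cells. In wild-type cells at 8 h, 42.5% had a UMI of all 3 genes and 12.3% had none, beside 45.8% and 9.36% of Rad21-/- cells. At 2 h, 9.70% of wild-type and 5.84% of Rad21-/- cells had all 3, and 46.1% and 64.3% had none. Among Rad21-/- cells at 2 h, Bcl2a1b was found in 56.8% (39.5% to 72.9%) of cells with a Bcl2a1d UMI and in 13.7% (8.02% to 21.3%) of cells without. The same pair in wild-type cells at 2 h gave 57.9% (44.1% to 70.9%) and 25% (17.2% to 34.3%). These are cells of 1 sample each at equal depth, drawn from all of its library pools. At 2 h the A1 sum ranged from 64.4 to 506 CPM over pools of at least 10 Rad21-/- cells. The range over wild-type pools was 216 to 654 CPM. The overlap was not tested within single pools, nor was the part of these pool differences in it. The transcripts of the copies are nearly identical, and the part of reads counted for the wrong copy in this overlap was not tested.

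Gm10634, a gene model that overlaps Bcl2a1d, moved with it, and whether counting used the strand is not given in the sources used here. Gm10634 stood at 2.69, 18.6 and 59.8 CPM in wild-type cells and at 1.51, 12.9 and 65.7 CPM in Rad21-/- cells. Bcl2a1c, whose TGANTCA match is lost, had 1 UMI in each untreated sample. Its level in wild-type cells was 26.8 CPM at 2 h and 65.9 CPM at 8 h, against 24.98 and 88.0 CPM in Rad21-/- cells. At 8 h its genotype ratio was 0.42 (0.0021 to 0.84), beside the 0.41 of Bcl2a1a and a median of all genes at 0.22.

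**Figure D2:**
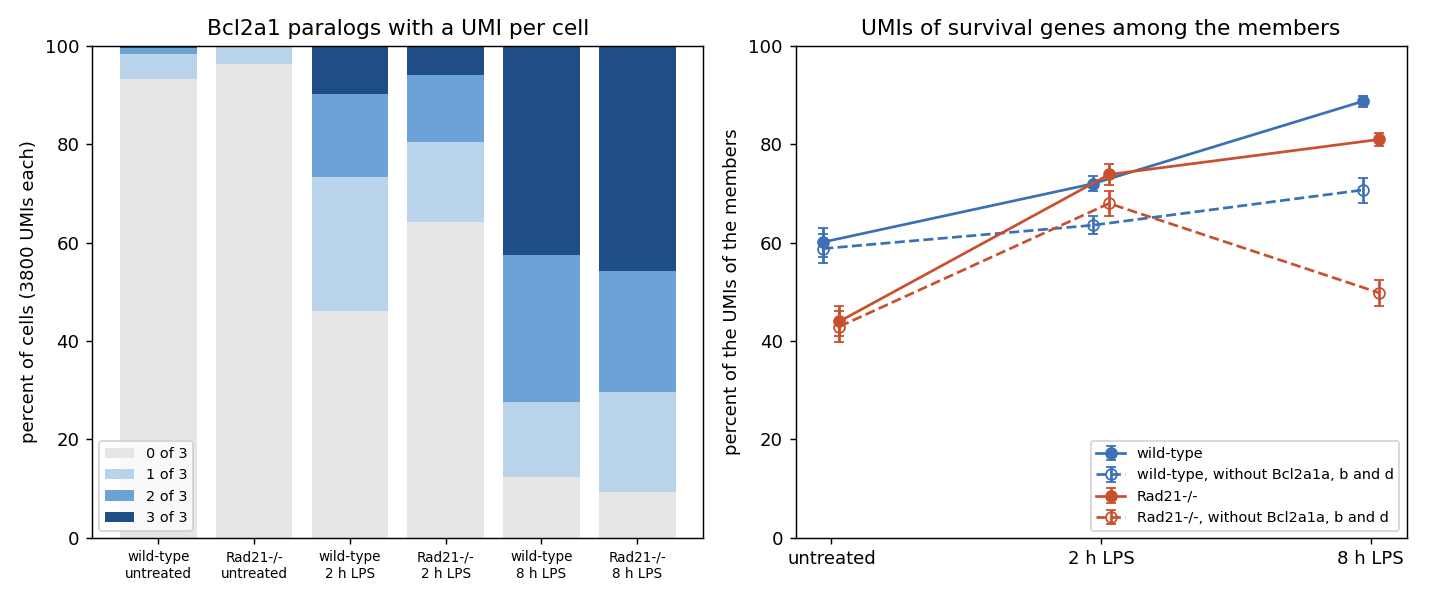
Left, percent of cells, each thinned to 3800 UMIs, with a UMI of 0, 1, 2 or 3 of Bcl2a1a, Bcl2a1b and Bcl2a1d in the 6 samples. Right, UMIs of the 5 survival genes as a percent of the UMIs of all 9 members with exact 95% intervals (filled, solid) and without Bcl2a1a, Bcl2a1b and Bcl2a1d (open, dashed), where the Rad21-/- sample at 8 h stands at 49.8% and the wild-type sample at 70.7%.

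Mcl1 (chr3:95656944-95663179), a survival gene whose products turn over fast, was highest at 2 h. It stood at 291 CPM untreated, 596 CPM at 2 h and 343 CPM at 8 h in wild-type cells and at 181, 613 and 253 CPM in Rad21-/- cells. The 2 h level was 2.05-fold (log2 1.03, 0.84 to 1.22) and 3.38-fold (log2 1.76, 1.54 to 1.97) that of untreated cells. The LPS ratio at 2 h was thus larger in Rad21-/- cells, by log2 0.72 (0.44 to 1.01) and started from a lower untreated level. Without pool 3 or pool 13 the wild-type ratio at 2 h was below 2-fold. Untreated Rad21-/- cells lay below wild-type in 8 of 8 pools, at -0.68 (-0.92 to -0.45), the 2 h ratio was 0.04 (-0.12 to 0.20), and Rad21-/- cells were lower again at 8 h in 5 of 6 pools, at -0.44 (-0.64 to -0.24). At 2 h an Mcl1 UMI was found in 95.2% of wild-type and 95.7% of Rad21-/- cells.

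Bcl2l1 (chr2:152758732-152833803), the gene of Bcl-xL, was the member that set the genotypes apart at every time point. It stood at 135, 128 and 106.5 CPM in wild-type cells (untreated, 2 h, 8 h) and at 44.7, 77.3 and 57.6 CPM in Rad21-/- cells. The lowest wild-type level lay above the highest Rad21-/- level, with intervals of 90.2 to 126 CPM and 60.7 to 98.4 CPM that overlap. The log2 ratio of Rad21-/- to wild-type was -1.60 (-2.03 to -1.15) untreated, -0.72 (-1.16 to -0.29) at 2 h and -0.89 (-1.30 to -0.46) at 8 h. Rad21-/- cells were lower in 8 of 8, 4 of 4 and 6 of 6 pools. Among thinned cells, 34.9% (28.2% to 42.1%) of untreated wild-type and 13.9% (9.64% to 19.1%) of untreated Rad21-/- cells had a UMI.

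The LPS ratio of Bcl2l1 at 2 h was log2 -0.09 (-0.42 to 0.25) in wild-type cells and 0.79 (0.27 to 1.30) in Rad21-/- cells. The difference of these LPS ratios was 0.88 (0.26 to 1.49) at 2 h and 0.71 (0.11 to 1.32) at 8 h, so the gap between genotypes was narrower after LPS than before it. Among wild-type cells at 8 h Bcl2l1 was found in 26.5% (20.5% to 33.2%) of cells with and 46.4% (27.5% to 66.1%) of cells without an A1 UMI, intervals that overlap.

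Bcl2l11 (chr2:128126038-128162547), the gene of Bim, was highest at 2 h in both genotypes. Its lowest levels, at 8 h, had intervals that overlap those of untreated cells. It stood at 21.1 CPM untreated, 165 CPM at 2 h and 15.4 CPM at 8 h in wild-type cells, and the Rad21-/- levels were 21.2, 64.1 and 12.2 CPM. Of the 3 time points, the intervals of the genotypes were apart at 2 h. In wild-type the 2 h level was 7.82-fold that of untreated cells (log2 2.97, 2.27 to 3.67) and in Rad21-/- cells 3.02-fold (log2 1.59, 0.88 to 2.29), a difference of -1.37 (-2.37 to -0.39) in the LPS ratio. From 2 h to 8 h the log2 ratio was -3.42 (-4.09 to -2.72) in wild-type and -2.39 (-3.21 to -1.49) in Rad21-/- cells.

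At 2 h, Rad21-/- cells had 2.57-fold (1.89 to 3.48) less Bcl2l11 than wild-type, a log2 ratio of -1.36 (-1.80 to -0.92), lower in 4 of 4 pools with a range of -2.27 to -0.54. A Bcl2l11 UMI was found in 58.6% (51.2% to 65.8%) of wild-type and 26.9% (20.7% to 33.9%) of Rad21-/- cells, and after thinning in 40.0% (32.5% to 47.9%) and 16.2% (10.8% to 23.0%). At these depths the share of positive cells and the level per cell cannot be told apart. Bcl2l11 was found in 43.8% (33.3% to 54.7%) of wild-type cells with and 35.5% (24.9% to 47.3%) of cells without an A1 UMI at 2 h, intervals that overlap. Acoxl, which overlaps Bcl2l11, did not follow it, with 34.5, 32.6 and 36.7 CPM in wild-type and 20.8, 24.98 and 32.7 CPM in Rad21-/- cells.

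**Figure D3:**
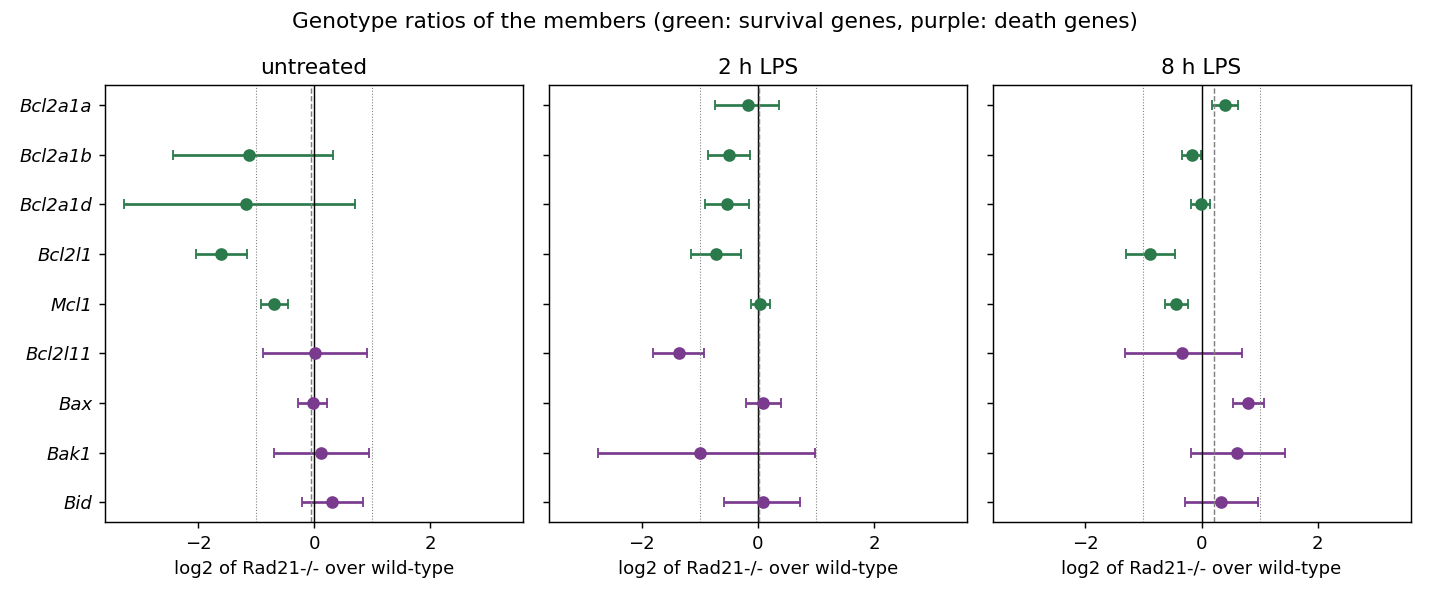
Log2 ratio of Rad21-/- over wild-type level for each member in untreated cells and at 2 and 8 h of LPS, with 95% counting intervals, survival genes in green and death genes in purple; the dashed line is the median of all 8441 genes, dotted lines mark 2-fold, and untreated Bcl2a1a is left out because both samples held at most 3 UMIs. Bcl2l1 lies left of 0 in all panels, Bcl2l11 at 2 h, and Bax lies to the right at 8 h.

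Bax (chr7:45461695-45466903), a pore-former at the mitochondrial membrane, set the genotypes apart at 8 h. It stood at 212, 162.9 and 134 CPM in wild-type cells and at 208, 174 and 235 CPM in Rad21-/- cells. Untreated and at 2 h the genotype ratios were log2 -0.03 (-0.27 to 0.22) and 0.09 (-0.21 to 0.40), intervals that hold 0. At 8 h Rad21-/- cells had 1.75-fold more (log2 0.81, 0.54 to 1.08), in 6 of 6 pools, while the median of all 8441 genes was itself at 0.22 in this comparison. With 8 h of LPS, Bax was lower than untreated in wild-type, at -0.66 (-0.95 to -0.37), beside a median gene at -0.25. In Rad21-/- cells it was at 0.17 (-0.06 to 0.40), and the difference of the LPS ratios was 0.83 (0.47 to 1.199). Among thinned cells at 8 h, 39.5% (33.1% to 46.1%) of wild-type and 57.1% (50.03% to 64.0%) of Rad21-/- cells had a Bax UMI.

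Bak1 (chr17:27019812-27028627), the partner pore-former, was sparse, with 9 to 61 UMIs per sample. It stood at 20.8, 7.66 and 16.2 CPM in wild-type and at 22.7, 3.84 and 24.7 CPM in Rad21-/- cells, lowest at 2 h in both. The 2 h level against untreated was log2 -1.44 (-2.74 to -0.10) and -2.56 (-3.95 to -0.85). Its wild-type 2 h level depended on how cells were weighed: pooled over cells, with the deep wells counting by their UMIs, the 8 h against 2 h ratio was -0.04 in place of 1.08 (-0.27 to 2.39). Its genotype ratio at 8 h was 0.61 (-0.19 to 1.43), an interval that holds 0, with Rad21-/- cells higher in 6 of 6 pools. Ggnbp1 overlaps Bak1 and stood between 14.6 and 23.6 CPM in all samples.

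Bid (chr6:120893119-120917062), which links death receptors to mitochondria once a caspase cleaves it, stood at 45.8, 37.8 and 28.6 CPM in wild-type and at 57.01, 40.0 and 36.3 CPM in Rad21-/- cells. At 8 h it was below untreated cells by log2 -0.68 (-1.31 to -0.05) in wild-type and -0.65 (-1.17 to -0.11) in Rad21-/- cells. The genotype ratios were 0.32 (-0.21 to 0.85), 0.08 (-0.58 to 0.73) and 0.34 (-0.28 to 0.98), each with an interval that holds 0.

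Counted by size, the members at least 2-fold apart can be set beside the same share over the 8441 genes with at least 200 UMIs. After 2 h of LPS in wild-type, 5 of 9 members were at least 2-fold higher (the A1 genes, Bcl2l11 and Mcl1; 4.19% of all genes) and Bak1 at least 2-fold lower (3.33% of all genes). The Bak1 ratio of -1.44 was -0.20 with CPM pooled over cells, -0.97 with thinning and -0.72 without cycling cells, each short of 2-fold. The counts for Rad21-/- cells at 2 h were again 5 and 1, against 4.36% and 2.23% of all genes. At 8 h against untreated the A1 genes were the 3 higher members in either genotype and none was lower, against 7.12% of all genes higher and 16.4% lower in wild-type cells, and 7.5% higher and 5.71% lower in Rad21-/- cells. From 2 h to 8 h, 4 members were higher (the A1 genes and Bak1) and Bcl2l11 lower in wild-type (6.05% and 11.6% of all genes), and Bak1 was below 2-fold without pool 13 or pool 18. From 2 h to 8 h in Rad21-/- cells 4 were higher and 2, Bcl2l11 and Mcl1, were lower (5.97% and 5.15%). The LPS comparisons of a genotype share its untreated sample.

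Between genotypes, calls of at least 2-fold were few. Untreated, 3 members (Bcl2l1, Bcl2a1d and Bcl2a1b) were at least 2-fold lower in Rad21-/- cells and none higher, against 5.05% and 1.65% of all genes, and the intervals of both A1 genes hold 0. Without library pool 5, or without pool 8, Bcl2l1 was the 1 member left of these 3. At 2 h Bcl2l11 was lower and none higher, against 5.59% and 2.89%, and Bak1, at -0.99 with an interval of -2.75 to 0.99, passed 2-fold as well without pool 12, 14 or 15. At 8 h no member reached 2-fold either way, against 8.55% of all genes higher and 4.37% lower, and without pool 20 Bcl2l1 was the 1 lower member. The median log2 ratio of the members was -0.35, -0.50 and -0.02 at the 3 time points (untreated, over the 8 members with more than 3 UMIs in either sample), and that of all genes -0.04, 0.02 and 0.22.

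Taking the UMIs of all 9 members as 100%, survival genes made up 60.1% (57.2% to 63.01%) in untreated wild-type cells, 72.0% (70.5% to 73.5%) at 2 h and 88.7% (87.6% to 89.8%) at 8 h. The Rad21-/- values were 44.0% (40.95% to 47.1%), 73.9% (71.7% to 75.9%) and 80.98% (79.7% to 82.2%). Rad21-/- cells thus stood lower when untreated and at 8 h. Without the A1 genes, survival genes made up 58.8%, 63.6% and 70.7% in wild-type cells. The corresponding Rad21-/- values were 42.96%, 68.0% and 49.8% (47.2% to 52.5%). UMIs were summed over cells for these shares, so deep wells counted by their UMIs. Without wells above 25000 UMIs, the 2 h shares with the A1 genes were 74.8% in wild-type and 74.3% in Rad21-/- cells. Reads shared between A1 copies were lost, so the A1 part is uncertain relative to the other members. These shares describe transcripts, and each is of 1 sample.

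Genes with a pattern nearest to that of a member were sought among 1820 genes of at least 1000 UMIs, by the Euclidean distance of centred log2(level + 1) values over the 6 samples. Bcl2a1b and Bcl2a1d lay nearest to each other, at a distance of 0.475, and Bcl2a1a lay nearest to Bcl2a1d, at 1.204. Tnip3, at 1.22, and Clec4e, at 1.52, lay nearer to Bcl2a1b than Bcl2a1a did, at 1.63. The untreated levels of Bcl2a1a rest on 2 UMIs in wild-type and 1 in Rad21-/- cells. By Pearson correlation with Bcl2a1b over the 6 samples the order was the reverse, with Bcl2a1a at 0.992, Tnip3 at 0.983 and Clec4e at 0.969. Bcl2l1 had Ppm1l (0.4502), Rbpj (0.514) and Plekho2 (0.541) nearest, all lower in Rad21-/- cells at each time. Mcl1 had the cell-cycle inhibitor gene Cdkn1a (0.581) nearest, which stood at 332, 914 and 405 CPM in wild-type and at 171.7, 770 and 243 CPM in Rad21-/- cells. Bcl2l11 had A930011G23Rik (1.09) nearest, Bax had Ywhab (0.1504) and Bid had Drap1 (0.1505).

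Other genes of the death pathway were counted from whole lists. Of 17 further Bcl2 relatives, 15 were in the matrix, 6 had at least 200 UMIs, and Bik and Bcl2l15 were not analysed here. In wild-type, Bcl2a1c was the 1 higher relative at each comparison with untreated cells, and at 8 h Bbc3 (encoding Puma, a p53 target) and Bnip3l (a mitophagy receptor) were the 2 lower ones, at -1.93 (-3.07 to -0.76) and -1.17 (-1.91 to -0.41). Both were lower at 8 h in Rad21-/- cells too, at -2.30 (-3.20 to -1.27) and -1.21 (-1.82 to -0.57), and Bbc3 already at 2 h, at -1.29 (-2.08 to -0.47). None of the 6 relatives with at least 200 UMIs reached 2-fold between genotypes, and those with fewer were not counted. Of all genes in wild-type cells, 4.19% were at least 2-fold higher at 2 h against untreated, and 7.12% higher and 16.4% lower at 8 h. In Rad21-/- cells 2.23% were lower at 2 h and 5.71% at 8 h. Between genotypes, 1.65% to 8.55% of all genes were higher and 4.37% to 5.59% lower.

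Cflar, which encodes c-FLIP and blocks death receptor signalling, stood at 79.0, 421 and 506 CPM in wild-type and at 65.4, 393 and 390.2 CPM in Rad21-/- cells. Birc3, an inhibitor-of-apoptosis gene, was 2.25 (1.54 to 2.98) higher on the log2 scale at 2 h in wild-type and 2.77 (2.05 to 3.46) in Rad21-/- cells. It was the 1 gene of 3 with enough UMIs on the list of inhibitors of apoptosis and their antagonists that was at least 2-fold higher at 2 h or 8 h against untreated cells. Fas, a death receptor, was higher at 8 h by 3.20 (2.05 to 4.27) and 3.46 (2.20 to 4.61). Of the death receptor list, 5 of 7 genes had enough UMIs, and Cflar and Fas were the 2 higher at 2 h and 8 h against untreated in wild-type.

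Casp8, the initiator caspase of death receptors, stood at log2 1.06 (0.51 to 1.61) at 8 h of LPS against untreated cells in wild-type and at 0.17 (-0.40 to 0.73) in Rad21-/- cells. Cycs, the cytochrome c gene, stood at 0.91 (0.41 to 1.41) and 1.82 (1.23 to 2.38). Htra2, whose protein antagonises inhibitors of apoptosis, was lower in Rad21-/- cells untreated, at -1.58 (-2.52 to -0.64), and at 2 h, at -1.93 (-3.07 to -0.70). Of the 3 mitochondrial porins none reached 2-fold in any comparison of either kind.

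The share of cells with a UMI of a cycling gene differed between genotypes and time points. Such cells are the ones called cycling cells in this text. The paper describes mature macrophages as quiescent, and 1 such UMI does not show that a cell was dividing. A UMI of any of 6 cycling genes was found in 56.5%, 58.6% and 20.6% of wild-type cells and in 38.1%, 30.6% and 29.02% of Rad21-/- cells. Thinning gave 50.5%, 51.5% and 12.3% of wild-type cells, against 31.4%, 24.7% and 15.3% of Rad21-/- cells. Among cells without such a UMI, the genotype ratio of Bcl2l11 at 2 h was -1.85 and that of Bax at 8 h was 0.77. That of Bcl2l1 was -1.34, -0.44 and -1.02 at the 3 time points. These ratios are given without intervals, and the part of cycling in the genotype differences was not tested. Among markers of other cell types, 2 of 5 B cell genes were in the matrix, and their summed level was 23.9 to 49.01 CPM in wild-type and 170 to 181 CPM in Rad21-/- samples, through Ighm (8.56% to 17.2% and 42.4% to 52.2% of cells). The part of such transcripts in the genotype differences was not tested. Of the neutrophil list, 2 of 7 genes were in the matrix, with a summed level of 8.75 to 58.1 CPM in wild-type and 10.0 to 31.2 CPM in Rad21-/- samples, highest at 8 h in both. The lists for T or NK cells, dendritic cells and mast cells had at most 2 genes in the matrix, and their summed levels were at most 32.4 CPM.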

How the data were processed

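MARS-seq libraries of sorted single macrophages were mapped by the authors with GEMTools to GRCm38.p4 and Gencode M8, per the methods and labels. The authors dropped wells with high spike-in content, few mapped reads or very many reads, merged UMIs of nearly the same sequence and kept only reads with an unambiguous position. The deposited values are raw counts (UMIs of a gene in a cell). Cells were assigned to samples through column names, and the samples shared 0 pool and well names.

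Levels carry Fay-Feuer gamma intervals, ratios combine both intervals by square-and-add, and shares are exact Clopper-Pearson, all at 95%, from scipy 1.17.1, pandas 2.3.3 and numpy 2.4.6 under Python 3.11.15. On simulated data, the intervals held the true ratio for 97.2% of 8226 genes set unchanged between the wild-type 2 h and untreated samples. Those counts were drawn with counting error alone, as the intervals assume, and with no added spread between cells or pools. The simulation therefore says nothing of such spread in the data. Thinning without replacement used 3800 UMIs. Genes with at least 200 UMIs were counted at 2-fold, and pools needed 10 cells of a genotype. No ratio was read where both samples held 3 UMIs or fewer. No doublet caller was run. Cells were sorted into wells for single-cell libraries, and whether each well held 1 cell was not checked, also for wells above 25000 UMIs. The members and lists were chosen with earlier results of these data known. Named genes were the 9 members, list genes of at least 200 UMIs beyond 2-fold, at most 4 a list and comparison, and the 3 genes nearest each member. Promoters came from RefSeq GRCm38.p6, which held all 9 members, and transcripts from Gencode M1. Alternatives were pooled CPM, thinning, no wells above 25000 UMIs, no cycling cells, equal pool weights, centring, 1.5-fold, at least 2 UMIs, no minimum of UMIs, no A1 genes and leaving out each pool. Some items of the lists are not reported here.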

Additional observations from a re-analysis of the deposited data

Results flagged for a closer look

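For 5 members the sign of a log2 ratio differed between groups, with at least 1 value whose counting interval lay wholly above or below no change. In each pair of opposite signs, 1 of the values had an interval that included no change, so no reversal of direction is shown. Each group is 1 sample, so none of these differences was tested between replicates.

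Bcl2a1a, an A1 copy, stood at -0.18 (-0.73 to 0.37) for Rad21-/- against wild-type cells at 2 h and at 0.41 (0.19 to 0.63) at 8 h. The median of all genes was at 0.22 in this contrast at 8 h. Bax stood at -0.026 (-0.27 to 0.22) untreated and at 0.81 (0.54 to 1.08) at 8 h in the same contrast. Its LPS ratio at 8 h was -0.66 (-0.95 to -0.37) in wild-type and 0.17 (-0.06 to 0.40) in Rad21-/- cells.

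Mcl1, the survival gene with the most UMIs, stood at -0.68 (-0.92 to -0.45) for Rad21-/- against wild-type cells when untreated, at 0.040 (-0.12 to 0.20) at 2 h and at -0.44 (-0.64 to -0.24) at 8 h. Bcl2l11, the Bim gene, stood at 0.0098 (-0.87 to 0.91) untreated and at -1.36 (-1.80 to -0.92) at 2 h.

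Bcl2l1, the Bcl-xL gene, had LPS ratios of -0.086 (-0.42 to 0.25) at 2 h and -0.35 (-0.67 to -0.02) at 8 h in wild-type cells. The Rad21-/- values were 0.79 (0.27 to 1.30) and 0.37 (-0.15 to 0.88).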

How the results depend on the processing

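No paired analysis was possible because each group is 1 sample. Of 398 alternative values of the counts of members and the survival shares, 367 stayed within the limits set (1.5 times the count, or the counting interval of the share) and 31 moved. The cause was not tested. Most of the values came from leaving out a single library pool, where 229 stayed and 7 moved. A further 18 came from dropping the minimum of UMIs, which could change no count because every member passed it. The 1 sign change was that of Bak1 for wild-type 8 h against 2 h, at -0.037 with CPM pooled over cells. Bak1, the 1 member lower at 2 h than untreated in wild-type cells, left 0 lower members with pooled CPM, with thinning and without cycling cells. For Rad21-/- against wild-type at 2 h, lower members numbered 3 with pooled CPM (Bcl2l1, Bcl2l11, Bak1) and 2 with thinning, without cycling cells and with centring (Bcl2l11, Bak1). In the same contrast at 8 h there was 1 lower member without cycling cells and with centring (Bcl2l1) and 1 with equal pool weights (Bcl2l11). Without cycling cells, 1 member was lower at 8 h than untreated in Rad21-/- cells (Bcl2l11). At 1.5-fold, 2 members were lower at 8 h than untreated in wild-type cells (Bax, Bid), 2 in Rad21-/- cells (Bcl2l11, Bid) and 2 at 8 h than at 2 h in wild-type cells (Mcl1, Bcl2l11). Between genotypes at 1.5-fold, 3 were lower at 2 h (Bcl2l1, Bcl2l11, Bak1), 1 was lower at 8 h (Bcl2l1) and 2 were higher at 8 h (Bax, Bak1).

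The survival share was 63.5% in untreated and 75.3% in 2 h wild-type cells with thinning, and 74.8% in 2 h wild-type cells without wells above 25000 UMIs. Without the A1 genes it was 63.6% at 2 h and 70.7% at 8 h in wild-type cells, and 68.0% and 49.8% in Rad21-/- cells.

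Leaving out each library pool gave 0 to 1 lower members for Rad21-/- 8 h against untreated (1 without pool 17, Bcl2l11). For Rad21-/- against wild-type it gave 1 to 3 untreated (1 without pool 5 or 8, Bcl2l1), 1 to 2 at 2 h (2 without pool 12, 14 or 15, Bak1 added) and 0 to 1 at 8 h (1 without pool 20, Bcl2l1). Higher members at 2 h against untreated in wild-type cells ranged from 4 to 5 (Mcl1 lost without pool 3 or 13), and at 8 h against 2 h from 3 to 4 (Bak1 lost without pool 13 or 18). Bcl2a1a had no ratio against untreated cells without pool 5 (wild-type) or pool 4 (Rad21-/-), where its untreated count was 0. Depth limits Bak1 and the untreated A1 genes most.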
